A study of Mus musculus with 6 samples.

Results

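The 9 genes described here encode the proteins of elastic fibres and the enzymes that crosslink them: the fibrillins Fbn1 and Fbn2, elastin (Eln), the fibulins Fbln1, Fbln2 and Fbln5, and the lysyl oxidases Lox, Loxl1 and Loxl2. They were chosen by gene family, with earlier results of these data known. They were sought by symbol among the 54393 genes of the deposited table, and all 9 were found. Total RNA depleted of ribosomal RNA was sequenced, as paired reads from stranded libraries, from the tibialis anterior, the shin muscle that lifts the foot, of adult mice. The WT group held 3 muscles whose titles begin with C57. The Dock3 KO group held 3 muscles of mice that lack Dock3, an exchange factor that activates the small GTPase Rac. The knockout allele, the strain of the Dock3 KO mice, and whether each muscle came from its own animal are not given in the sources used here, so the p-values measure the spread between these muscles, and a difference of strain cannot be told apart from the loss of Dock3.

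Elastic fibres let a tissue stretch and recoil. Fibrillins polymerise into microfibrils, elastin is laid down on that scaffold, and fibulins bind both and guide the assembly. Lysyl oxidases are copper enzymes that oxidise lysines in elastin and collagen, after which the chains join into stable crosslinks. In skeletal muscle these proteins lie in the connective tissue around fibres, in tendon and in vessel walls, and fibroblast-like cells make most of them.

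Fbn1 and Loxl2 rose in Dock3 KO muscle, Fbn1 1.64-fold (95% interval 1.35 to 1.99) and Loxl2 2.11-fold (1.65 to 2.69), with 3 muscles per genotype. Of all genes tested, 1.03% passed. Both calls depended on the settings, since Fbn1 passed in 8 of 19 alternatives and Loxl2 in 12 of 20. Their differences stayed positive in all of these. The alternative run for Loxl2 only was chosen after the data were seen, and it passed. The other 6 genes tested, namely Eln, Fbln1, Fbln2, Fbln5, Lox and Loxl1, did not pass the test, so the rise in fibrillin and in 1 lysyl oxidase was not accompanied by a detected change in elastin itself. Fbn2 lay below the minimum level for testing. Loxl2 may share reads with a near-identical copy of the gene, Gm21451, and its values are uncertain for that reason.

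The lysyl oxidases share a catalytic domain at the end of the protein. The stretches printed here are the 99 coding bases, each within 1 exon, in which Loxl1, Loxl2, Loxl3 and Loxl4 are most alike. They are shown because Loxl2 passed the test while its relatives did not, though Loxl3 and Loxl4 also had log2 differences above 0. A reader can thus see how far the reads of these genes can be told apart. Sequences and coordinates are from GENCODE M21 (GRCm38), 5′ to 3′ on the strand of the gene, and capitals mark the 50 bases identical in all 4 genes.
Loxl1: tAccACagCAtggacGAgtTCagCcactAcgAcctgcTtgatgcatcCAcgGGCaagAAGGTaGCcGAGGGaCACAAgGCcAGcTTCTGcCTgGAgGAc
Loxl2: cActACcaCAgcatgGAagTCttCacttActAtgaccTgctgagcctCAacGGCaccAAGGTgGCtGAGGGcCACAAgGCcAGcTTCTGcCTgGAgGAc
Loxl3: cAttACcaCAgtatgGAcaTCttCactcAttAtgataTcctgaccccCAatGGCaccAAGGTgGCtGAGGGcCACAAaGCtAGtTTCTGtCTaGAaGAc
Loxl4: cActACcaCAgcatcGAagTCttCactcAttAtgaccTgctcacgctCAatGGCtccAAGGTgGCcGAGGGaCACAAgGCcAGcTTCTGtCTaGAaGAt
The Loxl2 stretch is on the plus strand at chr14:69689029-69689127, in exon 11 of 14. The Loxl1 stretch is on the minus strand at chr9:58293627-58293725, in exon 4 of 7. Loxl4 matched Loxl2 at 85.9% of the 99 bases, Loxl3 at 81.8% and Loxl1 at 62.6%. Over whole transcripts, the longest run of bases that Loxl2 shared with another lysyl oxidase was 28 bases, with Loxl1. Fbn1 and Fbn2 shared at most 26 bases, the fibulins at most 21, and Lox and Loxl1 at most 32. None of Fbn1, Fbn2, Eln, Fbln1, Fbln2, Fbln5, Lox and Loxl1 had a near-identical copy elsewhere in the annotation.

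The values are the authors' normalized counts, which put the libraries on a common scale. Values are listed by replicate number, WT replicates 1, 3 and 4 before Dock3 KO replicates 1, 2 and 3. Dock3 itself read 169, 161 and 118 for WT against 22.4, 1.78 and 1.54 for Dock3 KO, so every Dock3 KO library lay below every WT library. The libraries summed to between 23520200 and 33393900 normalized counts. Muscle fibre genes were abundant in every library, and Myh4, a fast myosin heavy chain, averaged 395893 ± 73140 for WT against 451392 ± 88031 for Dock3 KO (SD, n = 3 each). A pair of abundant transcripts, Gm42418 and Lars2, made up 17.9% and 20.3% of Dock3 KO replicates 1 and 2, against 3.00% to 3.64% of the other 4 libraries. Differences between genotypes are on the log2(normalized count + 1) scale, tested with limma over all 16031 genes with a mean of at least 10 and adjusted by the Benjamini-Hochberg method, with a threshold of 0.05. In the comparison as a whole 1.03% of the genes passed, made up of 0.443% that were higher and 0.586% that were lower in Dock3 KO. Fbn1, Fbn2, Eln, Lox and Loxl2 overlap genes on the other strand, and Loxl2 also holds Mir6950 on its own strand. Overlap here means that the spans of the genes, introns included, overlap, and shared exons were not checked. Whether the counting used strand is not given, and whether reads of such partners entered these values was not tested.

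Fbn1 (ENSMUSG00000027204, chromosome 2, 125300594 to 125507993, minus strand) encodes fibrillin-1, the main fibrillin of adult microfibrils. Its normalized counts were 3755, 3090.0 and 3513 for WT against 5899.8, 5259 and 5794 for Dock3 KO. All 3 Dock3 KO muscles lay well above the WT range, and the libraries of each genotype lay close together. The mean rose from 3453 ± 337 to 5651 ± 343 (SD, n = 3 each), or by 0.71 on the log2 scale (SE 0.13, limma adjusted p = 0.0275). Its 95% interval ran from 0.43 to 0.99. By an exact permutation test of Fbn1 alone, two-sided, p was 0.1, the smallest value that 3 against 3 samples allow. Dock3 KO replicate 3, whose share of Gm42418 and Lars2 was 3.64%, lay inside the range of the other Dock3 KO libraries.

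**Figure D1:**
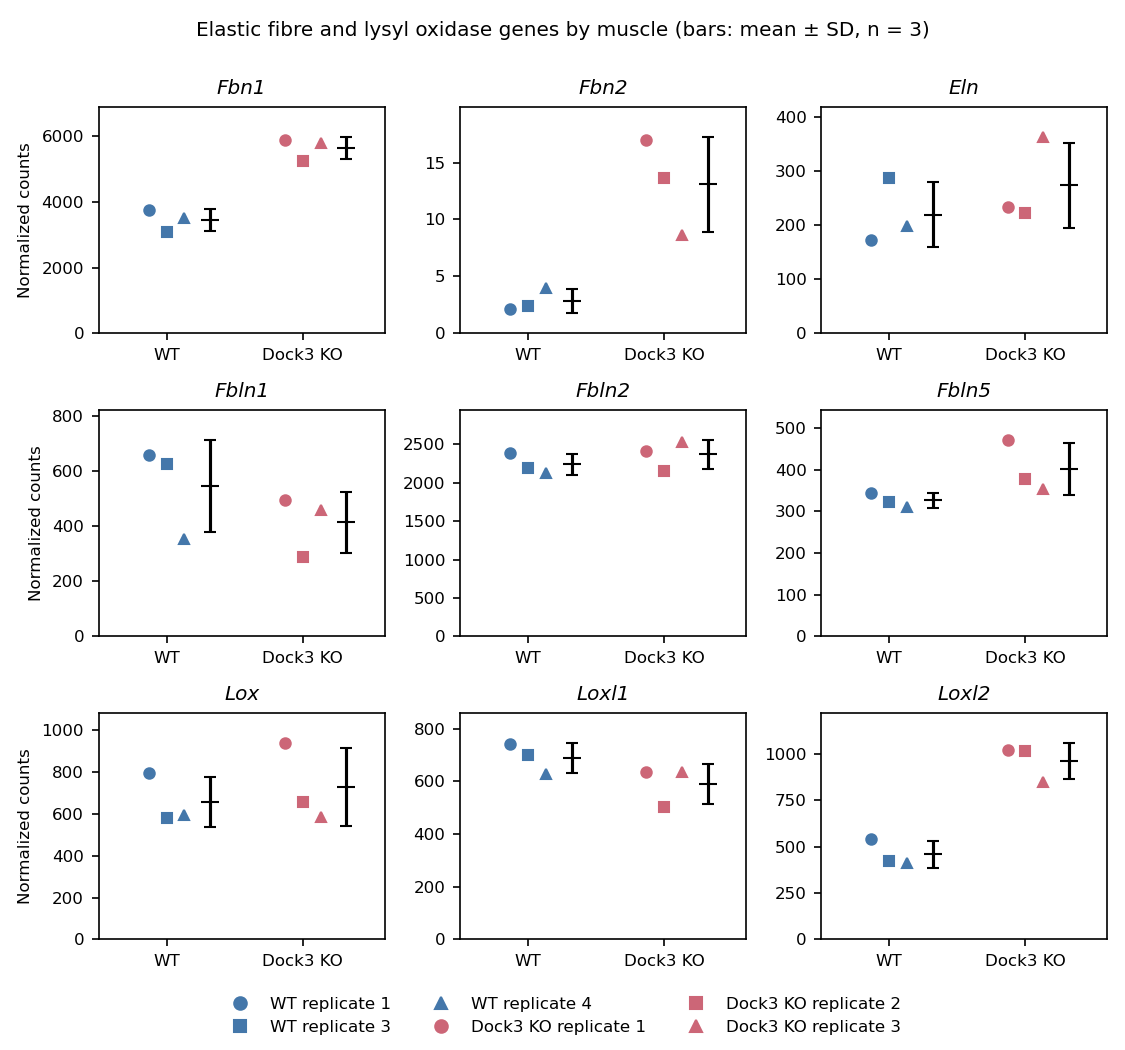
Normalized counts of the 9 genes in each muscle, on a separate linear axis from 0 for each gene, with WT in blue, Dock3 KO in red and the mean ± SD (n = 3) in black. Fbn1, Fbn2, Fbln5 and Loxl2 do not overlap between genotypes, and Eln, Fbln1, Fbln2, Lox and Loxl1 do.

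The call for Fbn1 was close to the threshold. Leaving out any 1 of WT replicates 3 and 4 or Dock3 KO replicates 1, 2 and 3 moved its limma adjusted p to 0.148, 0.101, 0.0709, 0.0630 and 0.0955 in that order, while the log2 difference stayed between 0.64 and 0.76. When libraries were rescaled to the same total, which shifts the median of all genes to -0.28, the log2 difference was 0.44 with a limma adjusted p of 0.278, and relative to that median it was 0.72. Without Dock3 KO replicates 1 and 2 together it was 0.75 with a limma adjusted p of 0.286.

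Fbn2 (ENSMUSG00000024598, chromosome 18, 58008623 to 58210487, minus strand) encodes fibrillin-2, the fibrillin of developing tissue. Its normalized counts were 2.15, 2.38 and 4.02 for WT against 17.0, 13.6 and 8.65 for Dock3 KO. Every Dock3 KO value lay above every WT value, with means of 2.85 ± 1.02 and 13.1 ± 4.19 (SD, n = 3 each). Its overall mean was under the minimum of 10, so it was not among the genes tested. Without that filter the log2 difference was 1.86 and the limma adjusted p was 0.476, so the difference was not detectable at these low values. Per kilobase of transcript, Fbn2 made up 0.0899% ± 0.0314 of the fibrillin signal for WT against 0.251% ± 0.0789 for Dock3 KO (SD, n = 3 each), so nearly all fibrillin signal was Fbn1 in both genotypes.

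Elastin is the protein that gives the fibre its recoil. Eln (ENSMUSG00000029675, chromosome 5, 134702593 to 134747323, minus strand) had normalized counts of 173, 287 and 198 for WT against 234, 223 and 364 for Dock3 KO. The genotypes overlapped, and the spread within each group was large, with a coefficient of variation of 27.4% in WT and 28.7% in Dock3 KO. The log2 difference was 0.31 (SE 0.25, limma adjusted p = 0.747), and its 95% interval from -0.25 to 0.87 includes a change as large as that of Fbn1. Normalized counts of Fbn1 were 16.7 ± 5.54 times those of Eln in WT muscle and 21.6 ± 4.97 times in Dock3 KO muscle (SD, n = 3 each), with overlapping values.

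The fibulins are calcium-binding glycoproteins that tie microfibrils, elastin and basement membranes together. Fbln2 (ENSMUSG00000064080, chromosome 6, 91212455 to 91272540, plus strand) had 2389, 2195 and 2131 normalized counts for WT against 2412, 2155 and 2534 for Dock3 KO, and the ranges overlapped. Its log2 difference was 0.079, with a 95% interval from -0.19 to 0.35 (limma adjusted p = 0.897), which leaves out a rise of the size estimated for Fbn1. Its sign turned when libraries were rescaled to the same total, to -0.20. That setting shifts the median of all genes to -0.28, and relative to that median Fbln2 stood at 0.083.

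Fbln5 (ENSMUSG00000021186, chromosome 12, 101746565 to 101819055, minus strand) encodes a protein that tethers elastin and lysyl oxidase enzymes to cells and fibres. It had 344, 323 and 310.5 normalized counts for WT against 472, 377 and 354 for Dock3 KO. The groups did not overlap, but the lowest Dock3 KO library lay just above the highest WT library. The log2 difference of 0.29 (SE 0.16) did not pass (limma adjusted p = 0.607). Fbln1 (ENSMUSG00000006369, chromosome 15, 85205949 to 85286535, plus strand) encodes a partner of elastin and fibronectin. It had 660.4, 628 and 356 for WT against 494, 289.6 and 458 for Dock3 KO. Its genotypes overlapped, with a log2 difference of -0.39 and a 95% interval from -0.99 to 0.22 (limma adjusted p = 0.700). WT replicate 4 had the lowest of the WT values of all 3 fibulins. Of the fibulin signal per kilobase of transcript, Fbln2 made up 69.7% ± 4.34 in WT muscle and 73.3% ± 2.97 in Dock3 KO muscle (SD, n = 3 each), so it was the main fibulin of the 3 in both genotypes.

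Of the 8 genes tested, 3 did not overlap between genotypes with Dock3 KO higher, namely Fbn1, Fbln5 and Loxl2, and 7.6% of all genes tested did so. None of the 8 did so with Dock3 KO lower, and 16.2% of all genes tested did not overlap in either direction. The median log2 difference of the 8 was 0.21, against -0.0073 for all genes tested, with 6 above 0 and 2 below. The plot of log2 differences sets the 8 intervals side by side.

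**Figure D2:**
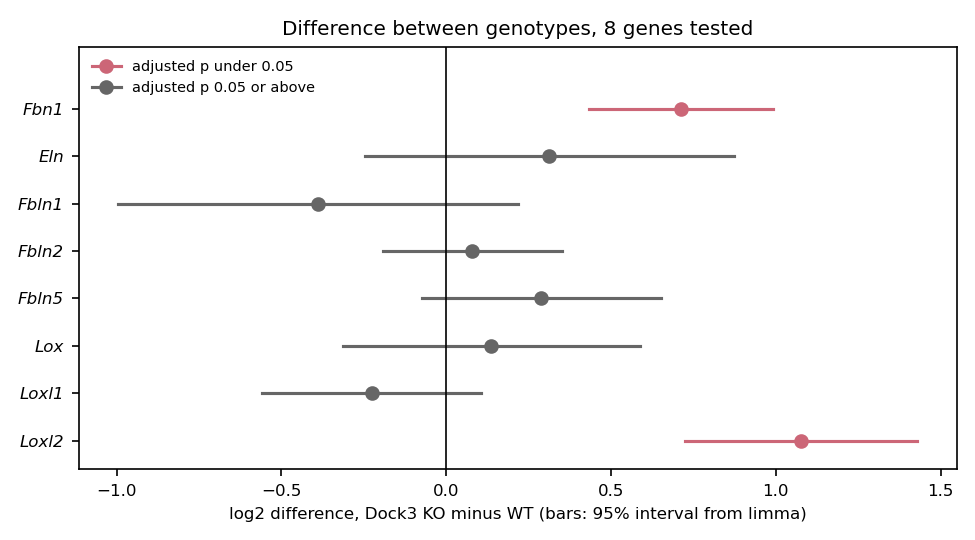
Log2 difference between Dock3 KO and WT for the 8 genes tested (points) with the 95% interval from limma (bars), in red where the adjusted p is under 0.05. Fbn1 at 0.71 and Loxl2 at 1.08 lie to the right of 0 with their intervals, and the other 6 intervals include 0.

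Lox (ENSMUSG00000024529, chromosome 18, 52516067 to 52529867, minus strand) encodes the founding lysyl oxidase, which acts on both collagen and elastin. Its normalized counts were 792, 579.9 and 592 for WT against 939.99, 657 and 586 for Dock3 KO. In each genotype replicate 1 was the highest, and the ranges overlapped. The log2 difference was 0.14 (SE 0.20, limma adjusted p = 0.888), and its sign rested on Dock3 KO replicate 1, without which it was -0.063. It also turned to -0.14 when libraries were rescaled to the same total, but relative to the shifted median of all genes it was 0.14.

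Loxl1 (ENSMUSG00000032334, chromosome 9, 58287738 to 58313186, minus strand) encodes an enzyme that binds fibulin-5 and acts mainly on elastin. It had 741, 700.1 and 628 normalized counts for WT against 635, 504 and 635 for Dock3 KO. WT replicate 4 lay inside the Dock3 KO range. The log2 difference was -0.23 with a 95% interval from -0.56 to 0.11 (limma adjusted p = 0.675), an interval that does not reach the estimated change of Loxl2.

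Loxl2 (ENSMUSG00000034205, chromosome 14, 69609068 to 69695834, plus strand) encodes an enzyme that crosslinks collagen IV and fibrillar collagens and also oxidises elastin. Its normalized counts were 543, 421 and 412 for WT against 1024, 1017 and 849 for Dock3 KO. Every Dock3 KO library lay well above the highest WT library. The mean rose from 458 ± 73.1 to 963 ± 98.9 (SD, n = 3 each), or by 1.08 on the log2 scale (SE 0.16, limma adjusted p = 0.00922). The 95% interval ran from 0.72 to 1.43, and the exact two-sided permutation p was 0.1. Its limma adjusted p was 0.0561, 0.0580 and 0.0614 when WT replicate 3, WT replicate 4 or Dock3 KO replicate 2 was left out. When libraries were rescaled to the same total it was 0.0793, with a log2 difference of 0.80. Relative to the shifted median of all genes that difference was 1.08. Without Dock3 KO replicates 1 and 2 together the log2 difference was 0.90.

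The copy of Loxl2 is Gm21451, an unprocessed pseudogene on the same strand of chromosome 14 (69390854 to 69480287), whose end lies 128780 bases before the start of Loxl2. It was found after the values had been seen. A run of 2348 bases, identical between the transcripts, covers 44.2% of the longest Loxl2 transcript and 91.9% of its 2328 coding bases, including the 99-base Loxl2 stretch printed above. Reads from that run cannot be told apart by sequence. The end of the shared run is printed for both genes, with the last 60 shared bases in capitals and the 60 bases that follow in lower case.
Loxl2: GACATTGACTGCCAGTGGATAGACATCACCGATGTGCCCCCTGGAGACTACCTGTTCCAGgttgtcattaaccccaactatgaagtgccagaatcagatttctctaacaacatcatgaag
Gm21451: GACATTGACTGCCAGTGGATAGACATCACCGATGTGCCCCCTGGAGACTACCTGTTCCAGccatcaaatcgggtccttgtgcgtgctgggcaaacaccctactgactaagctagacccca
The Loxl2 stretch spans chr14:69690211-69692373 and the Gm21451 stretch chr14:69471936-69477455, both on the plus strand of GRCm38 and both spliced. Beyond this point the transcripts differ.

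Gm21451 was listed at 0 in all 3 WT libraries but read 51.7, 12.3 and 113 normalized counts for Dock3 KO. All 3 Dock3 KO libraries were thus above 0, with a wide spread. Gm21451 reached the minimum mean for testing only through the Dock3 KO libraries, so no p-value is given for it. Against Loxl2 in the same library its value was small, between 0.0121 and 0.132 times that of Loxl2 in Dock3 KO. The sum of Loxl2 and Gm21451 was 543, 421 and 412 for WT against 1076, 1029 and 962 for Dock3 KO. In place of Loxl2, this sum, an alternative chosen after seeing the data, had a log2 difference of 1.17 (limma adjusted p = 0.00388). How far the rise belongs to the Loxl2 locus and how far to the copy was not tested, since the deposited values are sums per gene. Since the strain of the Dock3 KO mice is not given, a difference between strains in the number of copies of this stretch of chromosome 14 cannot be told apart from a change in expression, for Gm21451 and for Loxl2 alike.

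**Figure D3:**
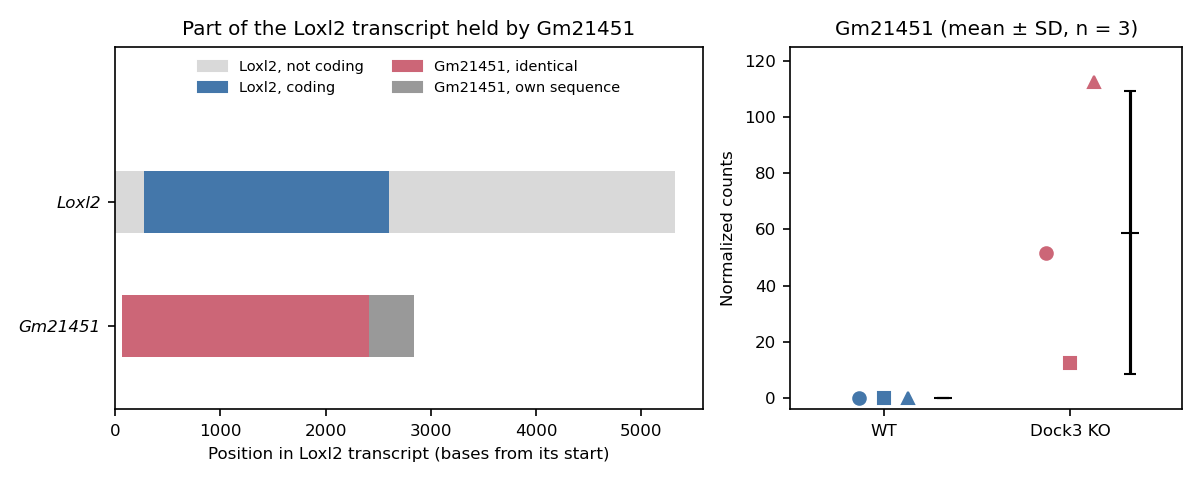
Left, the longest Loxl2 transcript and Gm21451 drawn to scale in bases from the Loxl2 transcript start, with the coding part in blue and the 2348 identical bases in red. Right, normalized counts of Gm21451 in each muscle with the mean ± SD (n = 3), at 0 in all WT libraries and between 12.3 and 113 in Dock3 KO libraries.

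Genes next to Gm21451 and Loxl2, chosen after their values were seen, differed in the same way in part. Entpd4, upstream of Gm21451, rose from 2307 ± 295 to 3829 ± 200 normalized counts (SD, n = 3 each, limma adjusted p = 0.0280). Gm16867, on the other strand across the same stretch as Gm21451, read 0, 0.747 and 1.49 for WT against 110.1, 94.5 and 111 for Dock3 KO. Gm16867 too reached the minimum mean for testing only through the Dock3 KO libraries, so no p-value is given for it. R3hcc1 and Chmp7, the neighbours of Loxl2 on its far side, did not pass, with log2 differences of 0.16 each and limma adjusted p-values of 0.910 and 0.755. Slc25a37, before Entpd4, did not pass either (limma adjusted p = 0.573). The same limit on strain and copy number holds for the values of Entpd4 and Gm16867.

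Per kilobase of longest transcript, a scale on which genes can be compared, Loxl1 was the most abundant lysyl oxidase in WT muscle at 209 ± 17.4 normalized counts per kilobase, followed by Lox at 138 ± 25.2 and Loxl2 at 86.2 ± 13.8 (SD, n = 3 each). In Dock3 KO muscle Loxl2 at 181 ± 18.6, Loxl1 at 179 ± 22.9 and Lox at 153 ± 39.5 (SD, n = 3 each) lay within their spread of each other. As a share of the signal per kilobase of the 5 family members, Loxl2 made up 17.5% to 18.6% in WT libraries and 29.8% to 34.5% in Dock3 KO libraries. The share of Loxl1 was 40.9% to 46.9% in WT and 27.6% to 36.0% in Dock3 KO, while that of Lox overlapped, at 27.0% to 30.4% and 23.1% to 31.2%. These shares do not depend on the scaling of the libraries, and they include reads that may come from Gm21451.

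**Figure D4:**
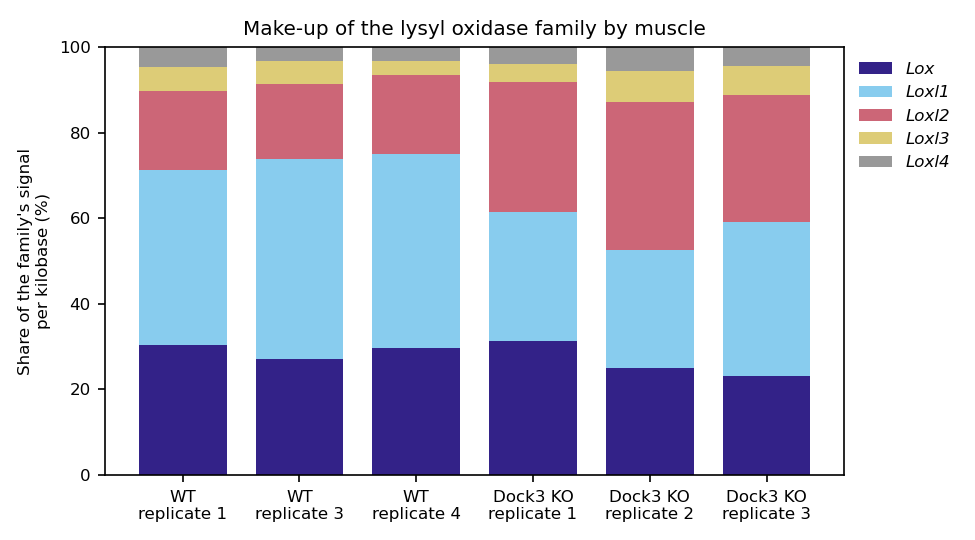
Share of each of 5 lysyl oxidase genes in the family's normalized counts per kilobase of longest transcript, as stacked bars adding to 100% for each muscle. The Loxl2 part (red) is 17.5% to 18.6% in the WT libraries and 29.8% to 34.5% in the Dock3 KO libraries.

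Among all 9 genes Fbln2 and Fbn1 had the highest levels per kilobase. Fbln2 stood at 468 ± 28.1 in WT and 495 ± 40.4 in Dock3 KO, and Fbn1 at 288 ± 28.1 and 472 ± 28.7 (SD, n = 3 each), so that in Dock3 KO these levels lay within their spread of each other. Fbln1 stood at 149.8 ± 45.7 and 113 ± 29.8 (SD, n = 3 each). Eln and Fbln5 were lower, at 71.0 ± 20.4 and 68.8 ± 10.7 in Dock3 KO, values that did not differ beyond their spread, and Fbn2 was lowest at 0.258 ± 0.0923 for WT against 1.19 ± 0.380 for Dock3 KO (SD, n = 3 each).

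The proteins that work with these genes were followed through 47 other genes in 8 lists by role. Of the 44 tested, 2 passed, both higher in Dock3 KO. Of all genes tested 1.03% passed, with 0.443% higher in Dock3 KO. The median log2 difference of the 44 was 0.12, against -0.0073 for all genes tested. Both genes that passed are collagens, the substrates that lysyl oxidases crosslink. Col1a1, a chain of collagen I, had 3688, 3799 and 1954 normalized counts for WT against 7278, 7411 and 8958 for Dock3 KO, a log2 difference of 1.38 (limma adjusted p = 0.0228). Col3a1, the chain of collagen III, which overlaps Gm47302 on the same strand, had 3951, 3952 and 2988 for WT against 6993, 6541 and 6259 for Dock3 KO, a log2 difference of 0.87 (limma adjusted p = 0.0168). WT replicate 4 was the lowest library for both, and Col1a1 passed in 12 and Col3a1 in 10 of the 19 alternatives run. Col1a2, Col5a1 and Col5a2 had log2 differences of 0.88, 0.64 and 0.67 and did not pass (limma adjusted p = 0.0537, 0.119 and 0.125). All 5 collagens were higher in every Dock3 KO library than in any WT library. Of the 44 pathway genes tested, 8 did not overlap with Dock3 KO higher and 2 with Dock3 KO lower. The shares over all genes tested were 7.6% and 8.65%. Within a library the ratio of Fbn1 to Col1a1 was 1.02, 0.813 and 1.80 for WT against 0.811, 0.710 and 0.647 for Dock3 KO. The genotypes nearly touched, at 0.813 in WT replicate 3 and 0.811 in Dock3 KO replicate 1, and WT replicate 4 lay far above the rest. The ratio of Fbn1 to Col3a1 overlapped between genotypes.

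Microfibril partners did not pass. Of the 10 microfibril-associated proteins, emilins and latent TGF-beta binding proteins tested, 5 were above 0 and 5 below, with Ltbp3 at a log2 difference of 0.45 and Emilin3 at 0.82 (limma adjusted p = 0.496 and 0.643). Ltbp4, named for its role in depositing elastin on microfibrils, had 3336, 3697 and 3022 for WT against 2714, 2813 and 3550 for Dock3 KO, which overlap. None of the 5 other fibulins and hemicentins passed. Loxl3 and Loxl4, the remaining lysyl oxidases, had log2 differences of 0.64 and 0.60 and did not pass (limma adjusted p = 0.542 and 0.501).

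In the list of ADAMTS family proteins that bind fibrillin, Thsd4 and Adamts10 had opposite signs. Thsd4, which promotes fibrillin-1 assembly, had 63.9, 70.9 and 75.4 normalized counts for WT against 19.2, 19.3 and 45.1 for Dock3 KO, without overlap. Its log2 difference of -1.41 (SE 0.38) did not pass (limma adjusted p = 0.164). Adamts10 stood at 0.54 (limma adjusted p = 0.472). None of the 6 tested genes that activate or support lysyl oxidases passed, a list of propeptide-cleaving proteases, their helpers and a copper transporter.

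Among 6 integrins that bind RGD motifs, which fibrillin-1 and fibulin-5 carry, none passed. Itgb1, the shared beta chain of many matrix receptors, was lower in every Dock3 KO library, with means of 5575 ± 487 for WT against 4232 ± 503 for Dock3 KO (SD, n = 3 each) and a limma adjusted p of 0.297. Of the 6 elastin-degrading proteases tested none passed either. Mmp9, a gelatinase, had 74.0, 63.0 and 57.1 for WT against 149, 109 and 134 for Dock3 KO (limma adjusted p = 0.105). Mmp14, a membrane-bound protease that activates Mmp2, had a log2 difference of 0.58 (limma adjusted p = 0.228).

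**Figure D5:**
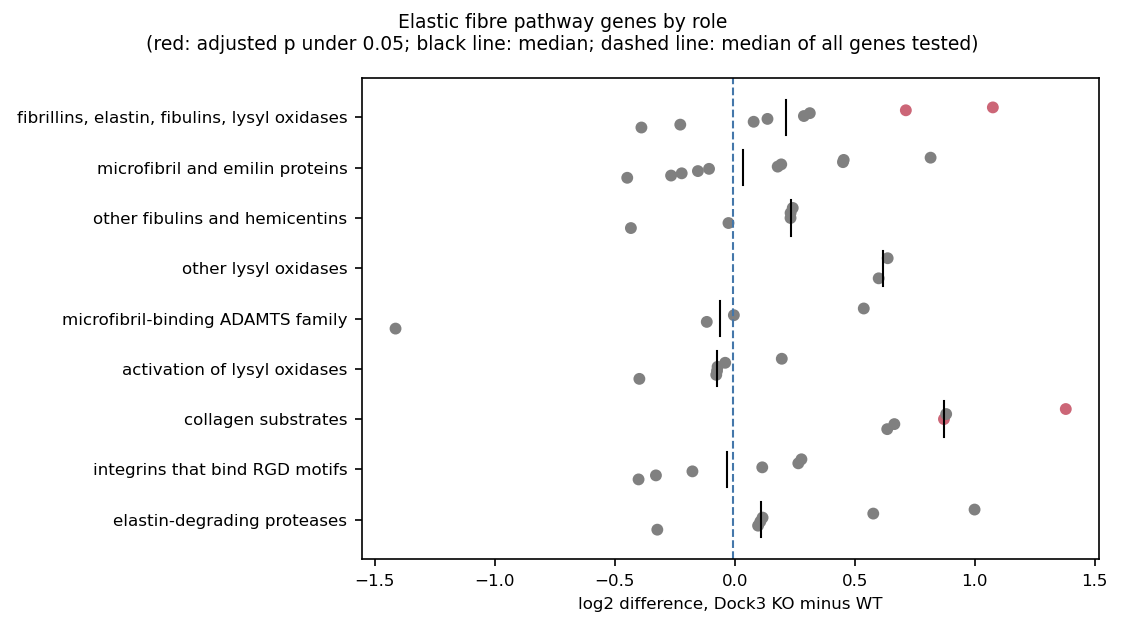
Log2 difference between Dock3 KO and WT of each tested gene by role (points, red where the adjusted p is under 0.05), with the median of each list (black line) and of all genes tested (dashed line). Fbn1, Loxl2, Col1a1 and Col3a1 are the points that passed, and the collagen list has the highest median at 0.87.

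In bulk muscle, more cells of a type and more RNA per cell cannot be told apart, so markers of the cells that make these proteins are given beside the results. Of 10 markers of fibro-adipogenic progenitors and fibroblasts, 4 had log2 differences above 0 and 6 below, with a median of -0.14. The 1 that passed was Col15a1, itself a matrix collagen, with a log2 difference of 0.93 (limma adjusted p = 0.0134). Pdgfra was higher in every Dock3 KO library, but its log2 difference of 0.15 did not pass (limma adjusted p = 0.722). Cd34 and Pi16 were lower in every Dock3 KO library, with log2 differences of -0.35 and -0.47 that did not pass (limma adjusted p = 0.434 and 0.296). Of all genes tested, 7.6% did not overlap with Dock3 KO higher and 8.65% with Dock3 KO lower. The summed level of the list was 60141 to 67574 normalized counts in WT and 55304 to 65130 in Dock3 KO, of which Gsn, at a mean of 35827 in WT, and Dcn, at 18572, made up most. No marker was at 0 in all libraries. Of these genes only Gsn, the most abundant, was named by rule, and Col15a1, Pdgfra, Cd34, Pi16 and Dcn were chosen after their values were seen. The ratio of Fbn1 to Pdgfra, the receptor that defines these cells, was 1.89 ± 0.170 for WT against 2.78 ± 0.213 for Dock3 KO (SD, n = 3 each), without overlap. That of Loxl2 to Pdgfra was 0.251 ± 0.0416 and 0.475 ± 0.0655 (SD, n = 3 each), also without overlap. Against Dcn, a small proteoglycan of the same cells, Fbn1 stood at 0.187 ± 0.0277 for WT and 0.375 ± 0.0799 for Dock3 KO (SD, n = 3 each). Col15a1 rose more than Fbn1, with log2 differences of 0.93 and 0.71. Its means were 923 ± 89.0 for WT and 1769 ± 264 for Dock3 KO (SD, n = 3 each). Of the 10 markers only Col15a1 had a log2 difference above that of Fbn1, and the next highest stood at 0.26. Whether Fbn1 rose relative to these cells thus depends on whether Col15a1, chosen after its values were seen, is taken as their marker.

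No marker of tendon cells, smooth muscle and pericytes, endothelium, macrophages, adipocytes, Schwann cells or red cells passed. The summed tendon list ran from 6206 to 11831 normalized counts in WT and from 9353 to 17698 in Dock3 KO, which overlap. The adipocyte sum did not overlap, at 3873 to 4466 in WT and 4752 to 12383 in Dock3 KO, with 6 of 7 markers above 0 and a median log2 difference of 0.70. Most of that sum was Car3, which muscle fibres also express. Adipoq, the defining adipokine, overlapped between genotypes, at 29.5 to 184 in WT and 29.8 to 178 in Dock3 KO. Lep and Retn, chosen after their values were seen, had log2 differences of 2.26 and 1.81. Each overlapped between genotypes and did not pass (limma adjusted p = 0.324 and 0.419). All 6 red cell markers were above 0, with a median of 0.62, and their sum overlapped. Dock3 KO replicate 1 was the highest in the tendon, adipocyte and red cell lists, and it was also the highest library for Fbn1, Fbn2, Fbln5, Lox and Loxl2. The part of these cells in the results was not tested. Acta2, a contractile actin of smooth muscle, read 2371 normalized counts in WT replicate 3 against 487 to 686 in the other 5 libraries, a gene chosen after its values were seen. WT replicate 3 was also the highest WT library for Eln.

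Genes whose pattern over the 6 libraries was most like a member were sought among 13436 other protein-coding genes, by the root mean square distance of centred log2 values. The nearest to Fbn1 were Stard13, Vgll3 and Wipf1, at distances of 0.0863, 0.0972 and 0.0992. The nearest to Eln were Hist1h2ac, Ltbp3 and Fam198b, at 0.113, 0.118 and 0.121, so that 1 of the 3 belongs to the microfibril list. The nearest to Lox were Ctu2, Cttn and Gal3st3, at 0.0733, 0.0801 and 0.0825.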

How the data were processed

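The authors deposited 1 table of normalized counts per gene, recorded here as a signal because the values are not whole numbers and have no fixed sum. The submitters' processing notes name FastQC, Trim Galore 0.4.5, Salmon 0.12.0, DESeq2 1.22.1, R 3.5.3 and the builds mm10 and GRCm38. The annotation, strand setting and scaling steps are not given in the sources used here. Whole reads were not recovered, so no count test was run and precision rests on 3 muscles per genotype. All 54393 identifiers matched GENCODE M21 (GRCm38). Values were taken as log2(value + 1), genes with a mean of at least 10 were kept, and genotypes were compared over 6 samples with limma 3.58.1 in R 4.3.3 (trended prior variance, no covariates). Near-identical copies were sought with blastn 2.17.0 (at least 95% identity over 100 bases and 50% of the shorter transcript). Gm48789, a pseudogene of a repeat in the part of Loxl2 after the coding sequence, also met this and did not pass the test.

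The members and lists were chosen with earlier results of these data known. The text names all 9 members, Dock3, pathway genes past the threshold and up to 12 more in order of p, the 3 genes most like Fbn1, Eln and Lox, and the most abundant gene of each marker list (Gsn, Fmod, Rgs5, Flt1, Csf1r, Car3, Pmp22, Hbb-bs and, for muscle fibres, Myh4). Genes outside this rule were named for their role or after their values were seen. They are Gm42418, Lars2, Ltbp4, Acta2, Adipoq, Lep, Retn, Pdgfra, Dcn, Cd34, Pi16, Col15a1 and Gm48789. Also outside it are Gm21451 with its neighbours and the genes that overlap a member or Col3a1. The alternatives were other pseudocounts, filters, scalings and prior variances, protein-coding genes only, the replicate block, Gm42418 as a covariate, and left-out libraries.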

Additional observations from a re-analysis of the deposited data

How the results depend on the processing

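The 2 members past the threshold were Fbn1 and Loxl2 in the main setting. Both kept a positive difference under every alternative run, Fbn1 between 0.44 and 0.78 and Loxl2 between 0.80 and 1.20. However, Fbn1 passed in 8 of 19 and Loxl2 in 12 of 20. The alternative run for Loxl2 only, its sum with Gm21451, was chosen after the data were seen, and it passed. The number of members past the threshold was 1 with quantile normalization (Fbn1 at an adjusted p of 0.0524) and 0 when rescaled to the same total, with a prior variance without trend, with log2 Gm42418 as a covariate and without Dock3 KO libraries 1 and 2 together, where the lone Dock3 KO library is assumed to vary like WT. In the last setting Fbn1 stood at 0.75 and Loxl2 at 0.90 (limma adjusted p = 0.286 and 0.377). The pathway genes past the threshold, 2 in the main setting, were 0 in the same 4 settings. Leaving out 1 library gave 0 to 2 members and 0 to 2 pathway genes. All genes past the threshold numbered 165 in the main setting, 104 with a prior variance without trend, 104 with protein-coding genes only, 57 with the covariate, 49 without both libraries and 98 to 159 when 1 library was left out. Rescaling to the same total gave 41 higher and 136 lower, against 71 and 94. With the replicate block, 0 members and 1 pathway gene passed, and Fbn1 and Loxl2 stood at 0.78 and 0.96 (limma adjusted p = 0.160 and 0.0866). The block leaves 1 residual degree of freedom. Same-numbered muscles correlated at 0.0649 and 0.00663 in their deviations from the group means. With so few muscles these values cannot show whether the numbers pair them. Fbln2 turned to -0.20 when rescaled to the same total, a setting in which the median of all genes was -0.28. Relative to that median Fbln2 stood at 0.083 and Lox at 0.14. Lox turned to -0.14 when rescaled, -0.19 with the covariate and -0.15 without both libraries, and ranged from -0.063 to 0.28 when 1 library was left out, negative without Dock3 KO replicate 1. The cause was not tested. Depth per gene is unknown, and Fbn2 is limited by its low values.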
